A study of Coprinopsis cinerea AmutBmut pab1-1 with 7 samples.

Results

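Of the 14242 gene models of the mushroom *Coprinopsis cinerea* in the count table, 97 were lower in every library of both *cre1* mutants than in every wild-type library by a wide margin, and these genes are described here. They were chosen by their values: each had a count of 20 or more in each of the 3 wild-type libraries, which 8740 genes reached, and its lowest wild-type value was at least 2 times its highest value in the 4 mutant libraries. A list of 16 genes was left out by name, 2 of which met both conditions. The libraries were made from vegetative mycelium grown in the dark for 84 h at 28°C on cellophane-covered YMG medium with 0.2% glucose. They comprise 2 libraries labelled as the cre1-43 deletion mutant, 2 labelled as the cre1-91 deletion mutant and 3 of the control strain (wild type). Every strain derives from AmutBmut *pab1-1*, which needs *p*-aminobenzoic acid. Each mutant label is 1 strain, made with Cas9 ribonucleoproteins and a *pab1* marker cassette directed at *cre1*, so the marker and the altered *cre1* locus cannot be told apart in these comparisons.

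Cre1 and its relatives, CreA in *Aspergillus* and Mig1 in yeast, are C2H2 zinc finger proteins that repress genes for the use of other carbon sources while glucose is at hand, a process called carbon catabolite repression. Genes that such a repressor holds down are higher when it is lost. Genes that are lower when such a repressor is lost can lie at any distance downstream, and expression alone does not tell direct from indirect targets.

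Quant-Seq reads the 3′ end of polyadenylated transcripts, so a gene's reads are not divided by its length, and its level is given as CPM, the scaled count values in the table the authors deposited. The assigned counts were 6232853 and 8459151 in the libraries labelled cre1-43, 7977328 and 8514379 in those labelled cre1-91, and 10196878 to 10784958 in the wild type, so depth and genotype cannot be told apart. The *cre1* gene itself was read in every library, at 8.44 ± 0.39 CPM under the label cre1-43 (SD, n = 2), 7.39 ± 1.59 CPM under the label cre1-91 (SD, n = 2) and 9.31 ± 1.78 CPM in the wild type (SD, n = 3). Because these groups overlap, the reads alone do not bear out the labels, and the mutant libraries are named as labelled throughout. By PCR and sequencing the study placed the *pab1* marker at the *cre1* locus in both strains, and it regards both as deletion mutants. The study also takes the higher expression of carbohydrate metabolism genes in its Quant-Seq data as evidence of the deletion. It also reports that an internal *cre1* fragment still amplified from both after many PCR cycles. The counts do not separate the coding exons of *cre1* from its overhang. Fractions of a read occur in 77 of the 97 genes, or 79.4%, against 75.0% of the genes with the count minimum. The values are thus estimated counts, and the strand used in counting is not given in the sources used here.

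The 97 genes together took 0.311% and 0.291% of all CPM in the libraries labelled cre1-43, 0.269% and 0.243% in those labelled cre1-91, and 1.23%, 1.11% and 1.13% in the wild type. Their summed level was 2917 CPM in each library labelled cre1-43, 2909 and 2475 CPM in those labelled cre1-91, and 12007, 10996 and 11338 CPM in the wild type. The summed level must be lower under both labels for any part of these genes, because each was selected to be lower. Without the 5 highest it was 1935 and 1944 CPM under the label cre1-43, 1865 and 1653 CPM under the label cre1-91, and 8389, 7413 and 7313 CPM in the wild type. The median member averaged 7.26 CPM under the label cre1-43 and 5.99 CPM under the label cre1-91, against 33.4 CPM in the wild type. Over all genes with the count minimum the same medians were 23.9, 23.6 and 23.4 CPM. The 97 genes thus stood somewhat above the typical gene in the wild type. Given that level, the selection itself places their median below the typical gene under both mutant labels. The mean left under the label cre1-43 ran from 2.87% to 41.2% of the wild-type mean, with a median of 24.6%. Under the label cre1-91 it ran from 2.22% to 44.9%, with a median of 19.6%.

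**Figure D1:**
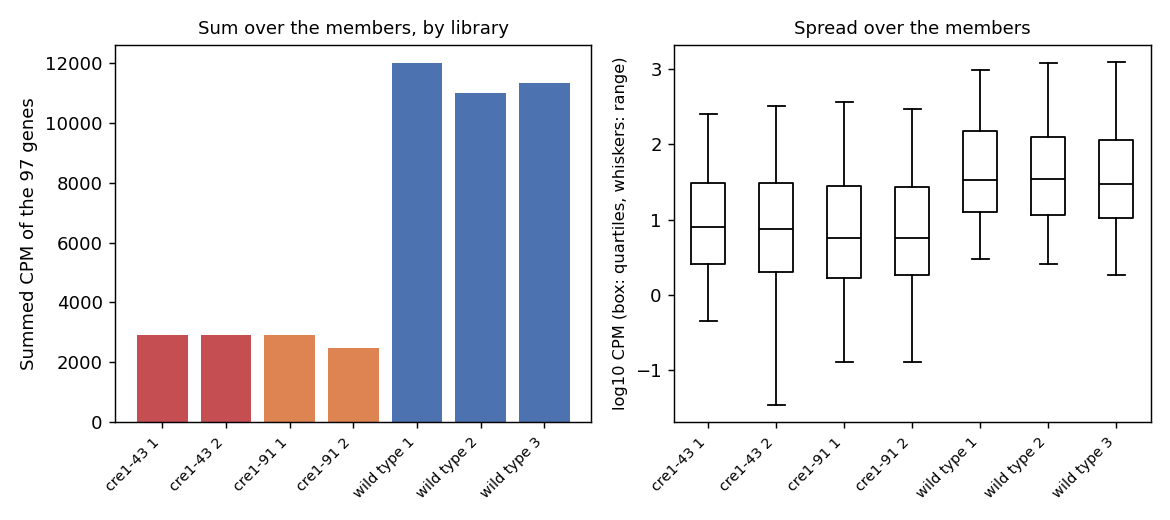
Level of the 97 genes in each library. The left panel gives the summed CPM as bars from 0, and the right panel the log10 CPM of the single genes as boxes with median and quartiles and whiskers to the lowest and highest gene. The 4 mutant-labelled libraries sum to between 2475 and 2917 CPM, and the 3 wild-type libraries to between 10996 and 12007 CPM.

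Each mutant was set against the wild type with edgeR's quasi-likelihood test over all 14242 genes, where a gene was called if its Benjamini-Hochberg adjusted P did not exceed 0.05 and its log2 fold change was 1 or more in size. All 97 genes were called lower under the label cre1-43, where 2.16% of all genes were, and all 97 were called lower under the label cre1-91, where 3.35% of all genes were. The genes were selected on this contrast, and the wild-type libraries are shared between the 2 comparisons, so these counts describe the choice and no P value is given for them. The median log2 fold change of the 97 genes was -2.03 for cre1-43 and -2.36 for cre1-91, against -0.05 and -0.05 over the genes with the count minimum.

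The margin, the lowest wild-type CPM over the highest CPM of the 4 mutant-labelled libraries, had a median of 2.62 and ran from 2.01 to 16.3. It was at least 3 for 33 genes, at least 5 for 16 and at least 10 for 2. In the opposite direction 118 genes of those with the count minimum were higher under both labels by the same margin of 2. The genes next to the limit show that it cuts through a continuous range. Just inside lay the proteins 222978 (margin 2.05), 408694 (2.04) and 495900 (2.01), and just outside lay 445635 (1.99), 542765 (1.98) and 465095 (1.97). The last of those inside, 495900, had 7.43 and 14.0 CPM under the label cre1-43, 3.68 and 5.50 CPM under the label cre1-91, and 28.1, 36.8 and 31.2 CPM in the wild type. The first of those outside, 445635, was far more abundant, with 2422 and 2995 CPM under the label cre1-43, 2835 and 3402 CPM under the label cre1-91, and 6787, 7868 and 7122 CPM in the wild type.

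The genes with the widest margins carry no annotation in the tables used here, which cover 25 of the 97 genes, and they are given by protein ID and position. Positions follow the deposited gene models on the *C. cinerea* Amut1Bmut1 *pab1-1* v1.0 assembly, with the 400-bp overhang that the authors added at each 3′ end included. Protein 468140, on the reverse strand of scaffold 31 from 154885 to 159386, had 5.11 and 2.16 CPM under the label cre1-43, 6.45 and 5.65 CPM under the label cre1-91, and 168, 105 and 107 CPM in the wild type. Its 15 coding exons overlap no other model, and its log2 fold changes were -5.17 for cre1-43 (standard error 0.32) and -4.39 for cre1-91 (standard error 0.30). Protein 501710, a gene of 2 coding exons on the forward strand of scaffold 236 from 23324 to 25971, had 26.2 and 29.6 CPM under the label cre1-43, 17.2 and 11.0 CPM under the label cre1-91, and 616, 379 and 457 CPM in the wild type. This was 1 of the 5 most abundant members in the wild type, and the only one of those 5 whose margin exceeded 3.

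Wide margins also occurred at moderate levels. Protein 489324, on scaffold 123 from 46966 to 48536, had 42.2 and 29.2 CPM under the label cre1-43, 19.9 and 20.6 CPM under the label cre1-91, and 394, 366 and 502 CPM in the wild type. Protein 465218, on scaffold 193 from 17456 to 18704, had 4.96 and 6.86 CPM under the label cre1-43, 7.88 and 7.93 CPM under the label cre1-91, and 80.3, 93.5 and 65.8 CPM in the wild type. The mutants took opposite orders in these 2 genes, with the lower values under the label cre1-91 in the first and under the label cre1-43 in the second. Protein 541145, on scaffold 43 from 79148 to 80845, had 4.06 and 2.66 CPM under the label cre1-43, 3.81 and 3.96 CPM under the label cre1-91, and 45.1, 52.6 and 30.8 CPM in the wild type. Protein 454418, on scaffold 2 from 612987 to 613981, had 0.98 and 0.71 CPM under the label cre1-43, 1.56 and 2.81 CPM under the label cre1-91, and 23.1, 18.9 and 18.6 CPM in the wild type. Protein 409790, on scaffold 405 from 16674 to 17542, had 11.2 and 10.5 CPM under the label cre1-43, 4.95 and 8.37 CPM under the label cre1-91, and 71.5, 71.1 and 74.7 CPM in the wild type. In this last gene the highest wild-type library was 1.05 times the lowest. The means of 8 genes lay under 10% of the wild-type mean under both labels, namely 468140, 501710, 489324, 465218, 541145, 364198, 501278 and 432876.

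**Figure D2:**
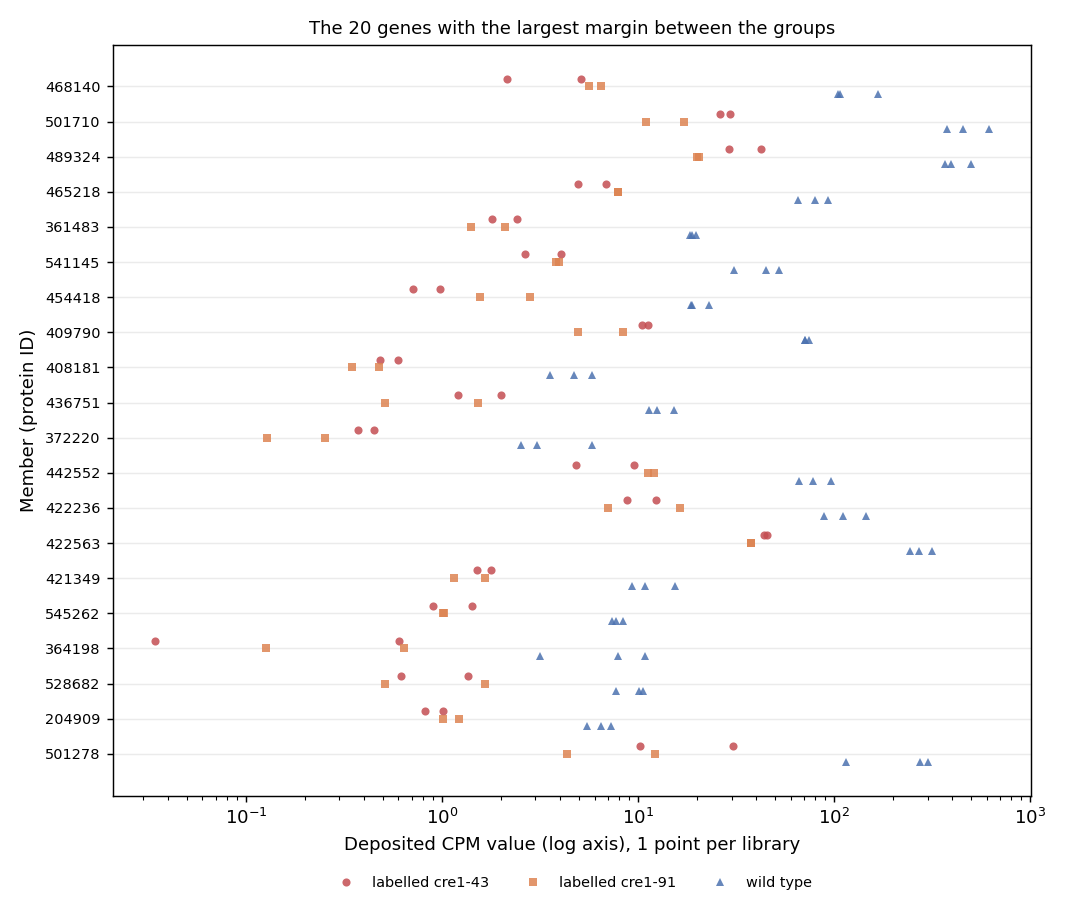
CPM of the 20 genes with the largest margins, on a log axis, with 1 point per library (2 labelled cre1-43, 2 labelled cre1-91, 3 wild type) and the genes in order of margin from the top. Every wild-type point lies to the right of every mutant-labelled point, as the selection requires, from a margin of 16.3 in 468140 down to 3.76 in 501278.

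Several of the 20 widest margins rest on few reads in the mutant-labelled libraries. Protein 408181 had counts of 3.2 and 5.0 under the label cre1-43, 2.8 and 3.8 under the label cre1-91, and 50.8, 60.0 and 38.5 in the wild type. Protein 372220 had counts of 3.0 and 3.2 under the label cre1-43, 2.0 and 1.0 under the label cre1-91, and 63.0, 26.0 and 33.0 in the wild type. The precision of a fold change is low at such counts. No member was at 0 in any library, and 372220 and 500507 were the only members at 3 counts or fewer in both libraries of a label, in each case cre1-91. The remaining genes among the 20 were 436751, 442552, 422236, 421349 and 545262, with margins from 5.21 to 5.67, the annotated genes 361483, 422563, 364198, 528682 and 204909, and 501278, which are taken up with their families or their position.

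The members with the highest wild-type levels spanned a wide range of margins. Protein 491298 averaged 239 ± 11.1 CPM under the label cre1-43 and 331 ± 55.3 CPM under the label cre1-91 (SD, n = 2 each), against 1141 ± 144 CPM in the wild type (SD, n = 3). Protein 445360 averaged 290.3 ± 47.4 CPM under the label cre1-43 and 259 ± 52.4 CPM under the label cre1-91 (SD, n = 2 each), against 756 ± 41.6 CPM in the wild type (SD, n = 3). Protein 222978 averaged 212 ± 5.07 CPM under the label cre1-43 and 231 ± 11.5 CPM under the label cre1-91 (SD, n = 2 each), against 515 ± 21.4 CPM in the wild type (SD, n = 3). Their margins were 2.64, 2.21 and 2.05, the first of them close to the median margin and the others below it. The other 2 of the 5 highest were 501710 and 178286, and all 5 together held 32.7% of the summed wild-type mean. A wild-type mean of 100 CPM or more was found for 31 members, or 32.0%, against 16.4% of the genes with the count minimum.

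Transporters are described first. Their number cannot be ranked against the other families, since most were annotated through the study's own list and not through the readable part of the annotation table. The study lists 54 plasma membrane transporter genes that it chose on these same libraries, and 8 of them were members, with margins from 2.12 to 4.70. Of the 54, 23 were called lower and 21 higher under the label cre1-43, and 22 were called lower and 18 higher under the label cre1-91. Among all genes 2.16% and 3.35% were called lower and 4.82% and 4.97% higher under the labels cre1-43 and cre1-91. Members of the major facilitator superfamily, carriers that move sugars and other small solutes across membranes, numbered 3. Protein 500507 had 1.11 and 2.13 CPM under the label cre1-43, 0.25 and 0.32 CPM under the label cre1-91, and 18.7, 12.1 and 7.97 CPM in the wild type. Protein 495582 had counts of 10 and 16 under the label cre1-43, 1 and 9 under the label cre1-91, and 98, 72 and 82 in the wild type. Protein 430336 had 1.52 and 0.95 CPM under the label cre1-43, 0.13 and 1.84 CPM under the label cre1-91, and 10.6, 7.60 and 6.58 CPM in the wild type. All 3 were of low abundance and came down to few reads, and their cre1-91 libraries differed from each other in the last 2. In the part of the annotation table that could be read, which covers 1999 genes and none of these 3, 37 genes carried the superfamily domain, with 3 lower and 4 higher under the label cre1-43 and 2 lower and 4 higher under the label cre1-91.

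The other transporters carried the domains of several families, and their substrates were not tested. Protein 474705 is an ATP-binding cassette transporter of the CDR type, a family known in yeasts for drug efflux, and had 16.2 and 10.9 CPM under the label cre1-43, 18.9 and 16.9 CPM under the label cre1-91, and 81.1, 58.0 and 55.9 CPM in the wild type. Protein 480521, an ATP-binding cassette transporter with a type 1 transmembrane domain, had 33.4 and 29.3 CPM under the label cre1-43, 27.7 and 33.9 CPM under the label cre1-91, and 79.4, 84.9 and 72.1 CPM in the wild type. Protein 363967 carries the SulP and STAS domains of sulfate transporters, and had 34.5 and 30.8 CPM under the label cre1-43, 31.9 and 34.4 CPM under the label cre1-91, and 87.0 to 122 CPM in the wild type. In all 3 genes the 2 mutant labels gave similar values, with log2 fold changes of -2.27 and -1.86, -1.33 and -1.35, and -1.67 and -1.65 for cre1-43 and cre1-91. Protein 530563, an amino acid/polyamine transporter, had 2.25 and 4.26 CPM under the label cre1-43, 1.97 and 1.53 CPM under the label cre1-91, and 17.8, 14.7 and 11.0 CPM in the wild type. Protein 528682, an RTA-like membrane protein, had 1.35 and 0.62 CPM under the label cre1-43, 1.65 and 0.51 CPM under the label cre1-91, and 7.76, 10.1 and 10.7 CPM in the wild type. A phosphate transporter by its domain, 195080, was read only 1 to 6 times in each mutant-labelled library and 32, 54 and 20 times in the wild type.

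Genes on the study's transcription factor list or with a DNA-binding domain numbered 3. Protein 367382 has C2H2 zinc fingers, a fold that Cre1 also uses, but its annotation also names a double-stranded RNA-binding zinc finger. Whether it binds DNA was not tested. It had 14.1 and 15.1 CPM under the label cre1-43, 10.8 and 11.3 CPM under the label cre1-91, and 81.3, 56.0 and 98.8 CPM in the wild type. Its log2 fold changes were -2.43 for cre1-43 (standard error 0.23) and -2.84 for cre1-91 (standard error 0.24). Protein 464505, with the basic leucine zipper by which such factors bind DNA as dimers, had 1.35 and 1.62 CPM under the label cre1-43, 1.65 and 2.19 CPM under the label cre1-91, and 8.59, 4.87 and 8.55 CPM in the wild type. Both are on the study's list of 31 transcription factors, chosen on these same libraries, of which 6 were called lower and 12 higher under the label cre1-43 and 7 lower and 14 higher under the label cre1-91. Among all genes 2.16% and 3.35% were called lower and 4.82% and 4.97% higher under the labels cre1-43 and cre1-91. Protein 364198, with a basic helix-loop-helix domain, had counts of 4.0 and 0.3 under the label cre1-43, 1.0 and 5.0 under the label cre1-91, and 86.0, 111 and 34.0 in the wild type. Its wild-type libraries differed by 3.43-fold, more than those of all but 1 other member.

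Secreted and cell wall enzymes formed another group. The 3 peptidases were a sedolisin, a serine peptidase active at acid pH, and the metallopeptidases of families M28 and M36, the last a fungalysin. The sedolisin 358430 had 42.7 and 41.5 CPM under the label cre1-43, 55.5 and 55.9 CPM under the label cre1-91, and 240, 199 and 226 CPM in the wild type. The fungalysin 26022 had 91.8 and 89.0 CPM under the label cre1-43, 111 and 110.1 CPM under the label cre1-91, and 275, 252 and 233 CPM in the wild type. Replicates lay close together in both genes, and both cre1-43 libraries were below both cre1-91 libraries. The M28 peptidase 163961 had 37.3 and 26.0 CPM under the label cre1-43, 23.0 and 24.1 CPM under the label cre1-91, and 215, 93.6 and 172 CPM in the wild type. Of 48 peptidase genes in the readable annotation, these 3 included, 5 were called lower and 1 higher under the label cre1-43 and 6 lower and 5 higher under the label cre1-91. The shares over all genes were 2.16% and 3.35% called lower and 4.82% and 4.97% called higher.

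Of the 19 fungal cell wall genes that the study lists from these libraries, 3 were members, while 6 were called lower and 9 higher under each label. Over all genes, 2.16% and 3.35% were called lower and 4.82% and 4.97% higher under the labels cre1-43 and cre1-91. Protein 422563, with a CBM50 (LysM) module that binds chitin-type polymers, had 43.7 and 45.3 CPM under the label cre1-43, 37.6 in each library under the label cre1-91, and 272, 318 and 245 CPM in the wild type. It had the widest margin of the 3, at 5.41. Protein 414471, a glycoside hydrolase of subfamily GH5_9, averaged 12.6 ± 3.82 CPM under the label cre1-43 and 9.25 ± 0.48 CPM under the label cre1-91 (SD, n = 2 each), against 33.8 ± 0.63 CPM in the wild type (SD, n = 3). Protein 451588, an AA3_2 oxidoreductase of the glucose-methanol-choline type, averaged 7.26 ± 0.27 CPM under the label cre1-43 and 7.91 ± 0.77 CPM under the label cre1-91 (SD, n = 2 each), against 20.5 ± 1.69 CPM in the wild type (SD, n = 3). None of the 82 plant cell wall genes on the study's list was a member, with 10 called lower and 62 higher under the label cre1-43 and 11 lower and 56 higher under the label cre1-91. That list was drawn from these libraries too, and 6 of its genes are among those left out by name, as are 9 of the transporter list and 1 of the transcription factor list.

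Enzymes of primary and secondary metabolism made up the rest of the annotated genes. Protein 178286, a PsiD-like decarboxylase of the phosphatidylserine decarboxylase type, the family that supplies the first step of psilocybin synthesis in *Psilocybe*, had 253 and 165 CPM under the label cre1-43, 120.3 and 73.4 CPM under the label cre1-91, and 817, 683 and 1037 CPM in the wild type. Protein 361483, an AMP-dependent synthetase or ligase, a class that activates acids through an adenylate, had 1.80 and 2.41 CPM under the label cre1-43, 2.11 and 1.41 CPM under the label cre1-91, and 19.7, 18.5 and 18.8 CPM in the wild type. Its log2 fold changes were -3.17 for cre1-43 (standard error 0.30) and -3.40 for cre1-91 (standard error 0.31), the widest margin among the annotated genes at 7.67. Protein 360877 has the domains of siroheme synthase and uroporphyrin-III methyltransferase, which make the siroheme cofactor of sulfite and nitrite reductases. It had 18.3 and 16.6 CPM under the label cre1-43, 25.1 and 22.4 CPM under the label cre1-91, and 76.1, 57.5 and 79.2 CPM in the wild type. A 3-beta-hydroxysteroid dehydrogenase type protein (204909), an NADP-dependent oxidoreductase (120396), a methyltransferase using S-adenosylmethionine (123898) and a protein with the domain of unknown function DUF1996 (362437) had margins of 4.47, 2.31, 2.08 and 2.11.

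The wider families of the readable annotation are given as counts, beside the 2.16% and 3.35% called lower and the 4.82% and 4.97% called higher among all genes under the labels cre1-43 and cre1-91. Of 32 cytochrome P450 genes, none a member, 3 (9.38%) were called lower and 1 higher under the label cre1-43 and 3 (9.38%) lower and 0 higher under the label cre1-91. Of 49 genes with the NAD(P)-binding fold, 2 were members, and 2 were called lower and 2 higher under the label cre1-43 and 2 lower and 4 higher under the label cre1-91. Of 25 S-adenosylmethionine-dependent methyltransferases, 1 was called lower and 0 higher under the label cre1-43 and 1 lower and 2 higher under the label cre1-91. Of 9 NADP-dependent oxidoreductases, 1 was called lower under the label cre1-43 and 2 under the label cre1-91, with 0 higher under either. Of 8 ABC transporters, 0 were called lower and 2 higher under the label cre1-43 and 1 lower and 0 higher under the label cre1-91. These do not include the ABC transporters 474705 and 480521, members outside the readable annotation that were called lower under both labels. Of 8 ricin B lectins 1 was lower and 2 higher under the label cre1-43 and 1 lower and 1 higher under the label cre1-91. For reference, of 34 ribosomal protein genes 0 were called under the label cre1-43 and 1 was called lower under the label cre1-91.

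**Figure D3:**
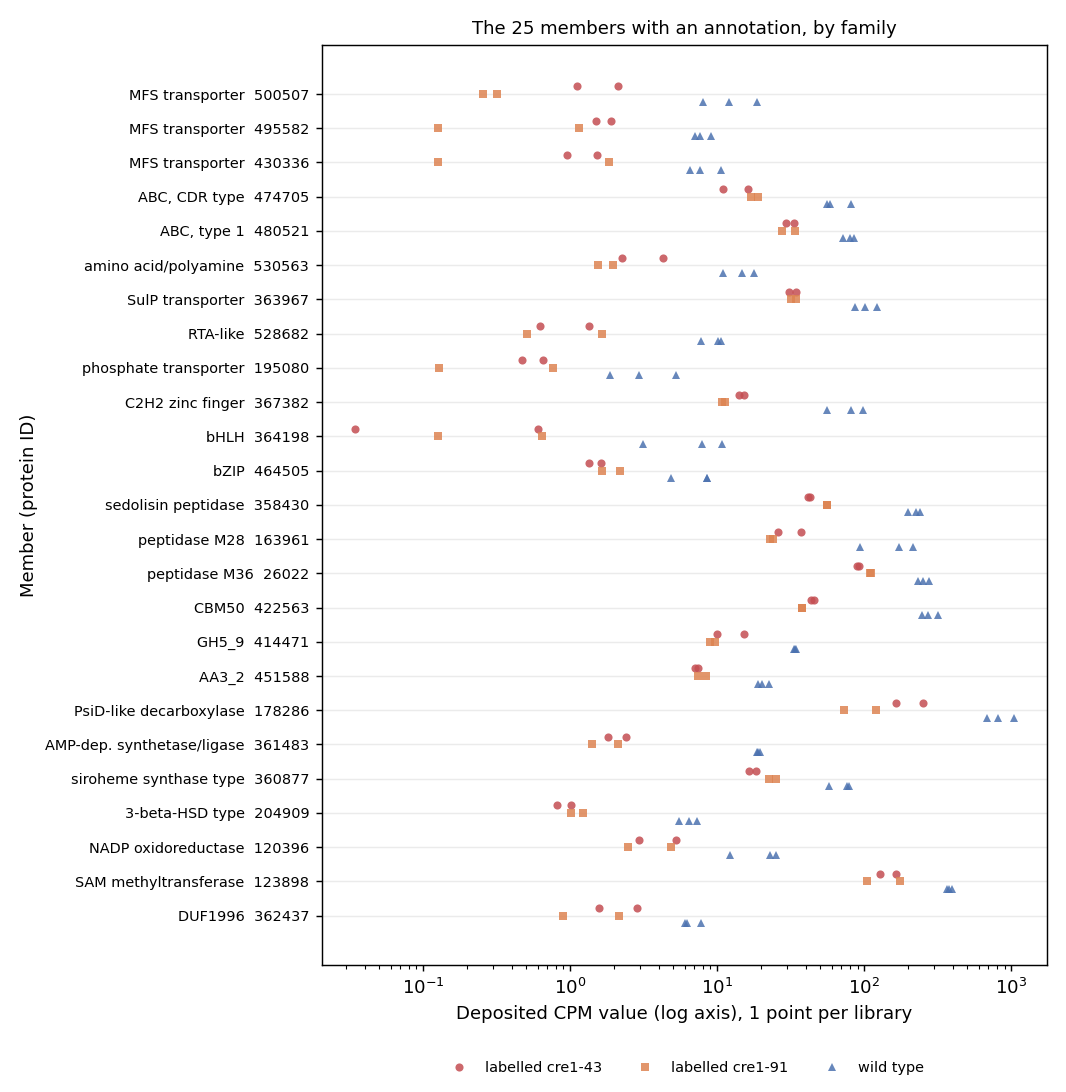
CPM of the 25 annotated members by family, on a log axis, with 1 point per library (2 labelled cre1-43, 2 labelled cre1-91, 3 wild type). Transporters stand at the top, then genes on the transcription factor list or with a DNA-binding domain, peptidases, cell wall enzymes and metabolic enzymes. The highest level is that of the PsiD-like decarboxylase 178286, with up to 1037 CPM in the wild type.

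The selection set the mutants against the wild type and not against each other, so the difference between the mutants was tested. It did use the highest of the 4 mutant values, so it can shape the spread between the mutants in these genes. The shares over unselected genes, here and below, are therefore given for reference only. Between cre1-43 and cre1-91, 2 of the 97 genes were called, or 2.06%, against 0.246% of all genes (35 of 14242) and 0.366% of the genes with the count minimum. Protein 499145, on the forward strand of scaffold 109 from 6418 to 8668, had 96.3 and 49.0 CPM under the label cre1-43, 20.1 and 21.7 CPM under the label cre1-91, and 570.2, 438 and 287 CPM in the wild type. The difference between the mutants, cre1-43 over cre1-91, was 1.79 on the log2 scale (standard error 0.30, edgeR adjusted P = 0.0126), and both cre1-43 libraries were above both cre1-91 libraries. Protein 414607, on the forward strand of scaffold 9 from 212982 to 215741, had 4.21 and 4.71 CPM under the label cre1-43, 1.27 and 0.51 CPM under the label cre1-91, and 13.2, 21.7 and 12.8 CPM in the wild type. Its log2 fold change was 2.31 (standard error 0.47, edgeR adjusted P = 0.0389), from counts of 28 and 39.8 under the label cre1-43 and 10 and 4 under the label cre1-91. The next smallest P belonged to the decarboxylase 178286, which missed the limit at a log2 fold change of 1.11 (standard error 0.24, edgeR adjusted P = 0.054), with both cre1-43 libraries above both cre1-91 libraries.

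These calls depended on single libraries. With edgeR the number of members called was 0 without cre1-43 replicate 1, without cre1-91 replicate 1, without cre1-91 replicate 2 or without wild-type replicate 2, and it was 1 without cre1-43 replicate 2, 3 without wild-type replicate 1 and 9 without wild-type replicate 3. The adjusted P of 499145 was at most 0.261 and that of 414607 at most 0.308 in these fits, and both kept their direction in each. With only the groups compared in the fit, 414607 lost its call (edgeR adjusted P = 0.0696) and 178286 gained one (edgeR adjusted P = 0.00353). With the replicate number as a block 5 members were called. Calls over all genes moved as well. In the main fit 10 genes were called lower and 25 higher under the label cre1-43 than under cre1-91. These numbers were 11 and 34 without wild-type replicate 1, and 2 and 3 without wild-type replicate 2. They were 23 and 82 without wild-type replicate 3, and 18 and 35 with the block.

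Short of the limit, more of the members had their lower values under the label cre1-91. The mean was lower under the label cre1-91 than under the label cre1-43 for 60 of the 97 genes, or 61.9%, against 49.9% of the genes with the count minimum. Both cre1-91 libraries lay below both cre1-43 libraries in 33 members, or 34.0%, against 19.7% of the genes with the count minimum. The reverse held in 14 members, or 14.4%, against 21.9% of the genes with the count minimum. The median log2 fold change of cre1-43 over cre1-91 was 0.18 over the members, with a range from -1.48 to 2.61, and it lay within 0.5 of 0 for 64 of them. At an unadjusted P under 0.05 stood 27 members, 21 higher and 6 lower under the label cre1-43, or 27.8%, against 15.2% of the genes with the count minimum. The largest of the 6 differences in that direction was that of 454418, at -1.43 (edgeR adjusted P = 0.223).

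**Figure D4:**
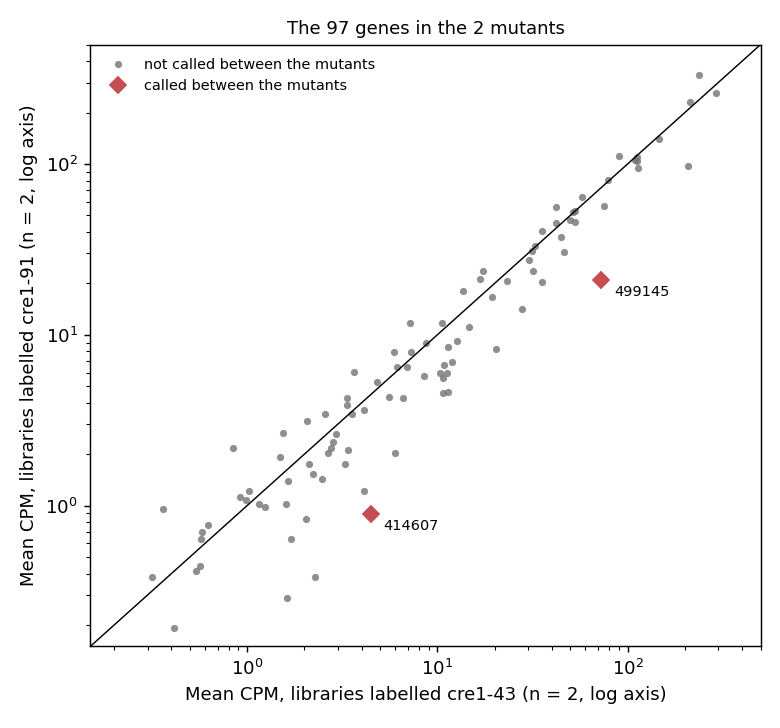
Mean CPM of the 97 genes in the libraries labelled cre1-43 (horizontal) and cre1-91 (vertical), both on log axes with n = 2, and the line of equal values. The diamonds mark 499145 and 414607, the 2 genes called between the mutants, and 60 of the 97 points lie below the line.

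The wild-type libraries differed in these genes. The lowest wild-type value fell in replicate 3 for 50 members, in replicate 2 for 33 and in replicate 1 for 14, where the same shares over the genes with the count minimum were 32.2%, 38.1% and 29.7%. The highest wild-type library was 1.37 times the lowest in the median member and 1.24 times in the median gene with the count minimum, and the ratio was at least 2 for 9 members. The widest was that of 432876, on scaffold 237 from 35192 to 36504, which had 4.60 and 3.67 CPM under the label cre1-43, 1.14 and 1.27 CPM under the label cre1-91, and 62.3, 63.7 and 9.57 CPM in the wild type. Its margin of 2.08 was set by wild-type replicate 3 alone. Among the 4 mutant-labelled libraries the highest was 1.75 times the lowest in the median member and 1.51 times in the median gene with the count minimum.

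The members were scattered over the genome. They lay on 84 of the 884 scaffolds that hold gene models, with 1 member on 72 scaffolds, 2 on 11 and 3 on 1. Another member lay within 10 kb of 8 of them, or 8.25%, against 5.58% of the genes with the count minimum. Proteins 461904 and 9181 are neighbours on the forward strand of scaffold 10, from 139064 to 140660 and from 140735 to 141587, 74 bp apart. Protein 461904 had 23.3 and 48.0 CPM under the label cre1-43, 43.6 and 37.8 CPM under the label cre1-91, and 174, 179 and 115 CPM in the wild type. Protein 9181 had 29.0 and 70.5 CPM under the label cre1-43, 57.3 and 36.9 CPM under the label cre1-91, and 282, 196 and 215 CPM in the wild type. In both the first cre1-43 library was the lowest and the second the highest of the 4 mutant-labelled libraries.

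The other adjacent pair, 414607 and 473133 on scaffold 9, lie on opposite strands and overlap at their extended 3′ ends, so reads in the overlap cannot be told apart without strand. Protein 473133, from 215089 to 216838, had 8.87 and 13.5 CPM under the label cre1-43, 4.19 and 7.80 CPM under the label cre1-91, and 41.8, 43.5 and 46.9 CPM in the wild type. Both genes of this pair thus had their lower values under the label cre1-91. Proteins 442015 and 501278 on scaffold 207 are separated by 1 gene model, 405851, and so are 497622 and the zinc finger gene 367382 on scaffold 64, by 245968. Protein 501278 had 30.6 and 10.3 CPM under the label cre1-43, 12.2 and 4.35 CPM under the label cre1-91, and 302, 274 and 115 CPM in the wild type. The model between it and 442015 had 1.95 and 2.16 CPM under the label cre1-43, 1.14 and 2.43 CPM under the label cre1-91, and 1.57, 2.14 and 1.48 CPM in the wild type, with overlapping groups. The other model, 245968, had 1.65 and 1.54 CPM under the label cre1-43 and 0 and 1.02 CPM under the label cre1-91. In the wild type it had 4.06, 2.73 and 3.06 CPM, above every mutant-labelled library. It overlaps the start of 367382 on the same strand.

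Genes next to a member are described from the same contrast on which the members were selected, with no test. Of 113 neighbours that reached the count minimum and are not members, 8 were called lower under the label cre1-43, or 7.08%, against 2.23% of all 8643 non-members with the count minimum. Under the label cre1-91 13 of the 113 were called lower, or 11.5%, against 4.08%. The models of 30 of these neighbours overlap that of a member. Among the 83 that do not, 7 (8.43%) and 11 (13.3%) were called lower under the labels cre1-43 and cre1-91. As gene models the members were somewhat shorter, with a median coding length of 993 bp against 1269 bp over the genes with the count minimum, and both medians were 5 coding exons. Another model overlapped 46 members, or 47.4%, against 62.9% of the genes with the count minimum.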

How the data were processed

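Quant-Seq libraries of vegetative mycelium (2 labelled cre1-43, 2 labelled cre1-91, 3 wild type) were grouped by their labels. Per the labels and the study's methods, the authors trimmed reads with bbduk, mapped them with STAR 2.6.1a to the Amut1Bmut1 *pab1-1* v1.0 genome and counted them with featureCounts over coding sequence, extended by 400 bp at the 3′ end of every model. The deposited count table holds estimated counts, not normalized, of which 20.3% are not whole. The deposited CPM table is a scaled signal made by the authors with edgeR, whose library sums are not exactly equal. Other tables and columns of fold changes or P values that the study gives were not used.

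The members were found by applying the rule to both tables. The plan assumed whole counts, so the estimated counts were rounded first. The edgeR test also ran on the counts without rounding. All 14242 genes and 7 libraries were fitted in R 4.3.3 with edgeR 4.0.16 (TMM scaling, no filter, glmQLFit and glmQLFTest, 1 coefficient per group). A call needed a Benjamini-Hochberg adjusted P not above 0.05 and a log2 fold change of 1 or more in size. Standard errors are the unshrunk coefficient over the square root of F. Alternatives used DESeq2 1.42.0, limma 3.58.1 voom, other scalings, a low-count filter, fits of 2 groups, no limit on fold change, a replicate block and each library left out. Fits without rounding and with crossed pairs were chosen after seeing the data. The models were tested on simulated data.

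Replicates of a group differed by more than sampling noise (chi-square per degree of freedom 12.5 to 21.5 within groups), so none was merged. The labels do not say that replicates are separate cultures, so P values measure the spread between these libraries. Family names come from the study's supplementary annotation, read in part (1999 genes), and from its lists of cell wall, transcription factor and transporter genes. Named in the text are the 20 widest margins, the 5 highest wild-type levels, the annotated members, the genes at the limit, the 3 smallest P between the mutants and members close to each other; 408181, 372220, 432876, 454418 and the genes between members were picked out after their values were seen. The members and lists were chosen with earlier results of these data known.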

Additional observations from a re-analysis of the deposited data

Results flagged for a closer look

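Between cre1-43 and cre1-91, 2 of the 97 genes (2.06%) were called with edgeR, against 0.246% of all genes. The selection can shape the spread between the mutants, so that share is for reference only. Both genes kept their calls with DESeq2, scaling by library size only and the replicate block. Neither kept its call with limma voom, after filterByExpr or without wild-type replicate 2. For 499145 the difference was 1.79 on the log2 scale (adjusted P = 0.0126), with both cre1-43 libraries above both cre1-91 libraries. For 414607 it was 2.31 (adjusted P = 0.0389), also with both cre1-43 libraries above both cre1-91 libraries, at 10 and 4 counts in the libraries labelled cre1-91. Protein 414607 overlaps the member 473133 on the other strand, and the part of shared reads in this difference was not tested.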

How the results depend on the processing

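The number of members found was 97. It was 259 at a margin of 1.5 and 33 at a margin of 3, and leaving out 1 library at a time gave 104 to 127. A count minimum of 10 or 50 gave 102 or 89, and CPM scaled by library size alone gave 99, of which 93 were among the 97. All 97 were called lower under each label, and over the alternatives 88 to 97 were called lower under the label cre1-43 and 92 to 97 under the label cre1-91, the lowest of the first with limma voom. The 2 members called between the mutants became 4 with DESeq2, 0 with limma voom, 7 with scaling by library size only, 1 with relative log expression scaling, 0 after filterByExpr, and 4 without rounding. Without fold-change limit the number was 2. With only the groups compared in the fit it was also 2, but 414607 lost its call (adjusted P = 0.0696) and 178286 gained one (adjusted P = 0.00353). Leaving out 1 library at a time gave 0 to 9. Where it was 0, 19 members had an unadjusted P under 0.05 with limma voom and 20 after filterByExpr, and 17 to 22 without single libraries, and no gene of the table was called with limma voom or after filterByExpr. The cause was not tested. Scaling by library size alone moved the median difference between the mutants over the genes with the count minimum to 0.12, against -0.002 with TMM, and that over the members to 0.29, against 0.18. Calls between the mutants over all genes moved too, from 10 lower and 25 higher under the label cre1-43 in the main fit. They were 17 and 51 with DESeq2, and 13 and 93 with scaling by library size only. With relative log expression scaling they were 10 and 18, and without rounding 17 and 57. The protein 178286 was called under 8 of 17 alternatives.

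Replicate numbers are shared between the groups, but the labels do not say that they mark a pairing. The deviations of replicate 1 from its group mean correlated at -0.22 between cre1-43 and cre1-91. They correlated at 0.16 between cre1-43 and the wild type, and at -0.067 between cre1-91 and the wild type. These correlations do not show a pairing, and with so few libraries per group they cannot exclude a pairing. With the replicate number as a block, 5 members were called between the mutants, 97 were called lower under the label cre1-43 and 96 under the label cre1-91. With the numbers of cre1-91 exchanged (a crossed pairing chosen after seeing the data), 10 were called between the mutants. Over all genes, 18 were lower and 35 higher under the label cre1-43 with the block, and 44 and 117 with the exchanged numbers.

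Low counts limit the precision of some members: 10 had 3 counts or fewer in cre1-91 replicate 1, the deepest of the mutant-labelled libraries, and 2 or 3 in each other mutant-labelled library.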
